A study of Caenorhabditis elegans with 4 samples.

Results

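cel-miR-228, cel-miR-790 and cel-miR-791, written miR-228, miR-790 and miR-791 below, are the *C. elegans* miRNAs related to the miR-96, miR-183 and miR-263 group. They were chosen by name from the deposited table of miRNAs, keeping both arms of each hairpin where both were listed. All 3 hairpins were listed with both arms, which gave 6 of the 205 mature miRNAs and 3 of the 132 hairpins of the table. Small RNA was sequenced from whole wild-type N2 Bristol animals at the last larval stage (L4), fed on OP50 bacteria. Controls (CTRL) stayed at 20°C, while the heat shock group (HS) was shifted to 35°C, with 2 libraries in each group. The heat shock lasted 4 h according to the sample characteristics and 6 h according to the treatment protocol. The study's methods also give 6 h for small RNA. The level used throughout is the authors' mean normalized count, a mean over all 4 libraries of read counts divided by size factors that correct for depth. Since this mean pools CTRL and HS, the levels below describe both groups at once and no comparison between the groups was made.

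miRNAs are cut from hairpin precursors as a duplex of the 5p and the 3p arm. As a rule one arm is loaded into an Argonaute protein and directs it to mRNAs through its seed, the bases near its 5′ end, while the other arm is degraded. In vertebrates miR-96 and miR-183 are known from sensory organs, where miR-96 is required for the hair cells of the inner ear. In *C. elegans* the upstream region of mir-228 is active in glia, the cells that ensheath sensory endings, and is widely used to mark them. miR-791 is known from neurons that sense CO2, where it represses a carbonic anhydrase gene and an anchoring protein gene. The arms known to carry the seed of the group are miR-228-5p, miR-790-5p and miR-791-3p. These assignments are background and were not read from sequence here. Whole animals were sequenced, so fewer cells of a type and less RNA per cell cannot be told apart, and the table of miRNAs holds no mRNA marker by which glia or neurons could be checked.

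The 3 hairpins were far apart in level. miR-228-5p was among the most abundant miRNAs of the animal, with a mean normalized count of 582252, and only 8 of the 205 listed miRNAs were above it. It made up 5.89% of the sum over all listed miRNAs and was 385-fold above the median listed miRNA, which was at 1512. Among the 8 were miR-44-3p (604592) and miR-45-3p (599219), and reads of miR-44 can also match miR-45. The rank and share of miR-228-5p therefore depend on how such reads were counted. The other 5 member arms were much lower. miR-228-3p had a mean normalized count of 1620, close to the median, with 100 miRNAs above it. Both arms of miR-790, a member to which no role is assigned here, were below the median. The mean normalized count was 377 for miR-790-3p, with 152 miRNAs above it, and 253 for miR-790-5p, with 165 above it. miR-791 was lower still. miR-791-5p was at 214 mean normalized counts and miR-791-3p at 85.5, with only 11 listed miRNAs below the latter. The lowest level in the table was 51.5, and the depth of the libraries is unknown, so no counting error can be attached to these values.

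**Figure D1:**
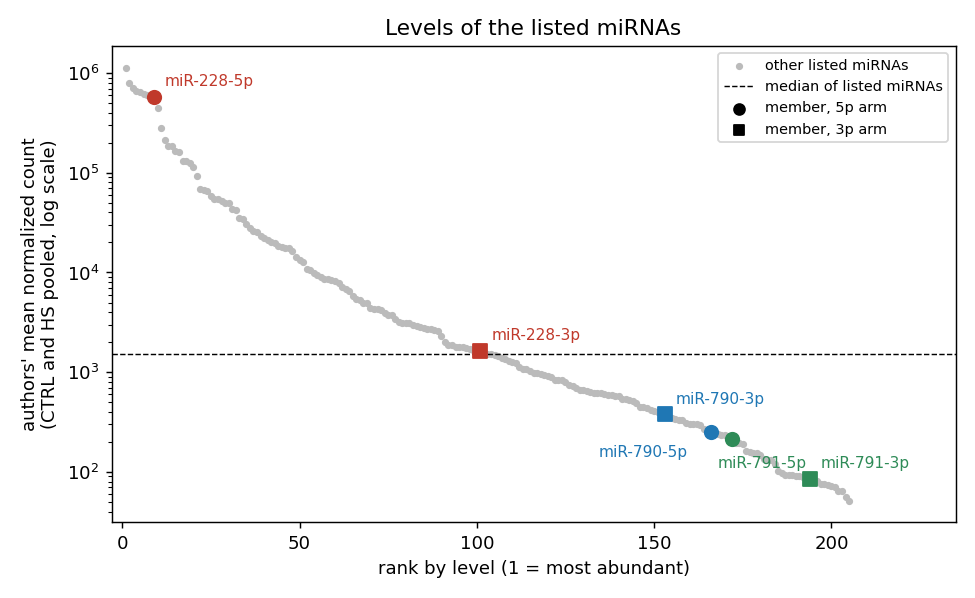
Mean normalized count of each listed miRNA (log scale, the authors' mean over CTRL and HS libraries) against its rank, with the arms of miR-228, miR-790 and miR-791 in colour (circles 5p, squares 3p) and the median as a dashed line. miR-228-5p has 8 miRNAs above it, miR-228-3p lies at the median, and the 4 arms of miR-790 and miR-791 lie between 85.5 and 377.

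Summed over both arms, the miR-228 hairpin reached 583872 mean normalized counts, the 9th highest of the 132 hairpins. The miR-790 hairpin reached 630 and ranked 105, and the miR-791 hairpin reached 299.6 and ranked 117. The miR-228 hairpin was thus 927-fold above miR-790 and 1949-fold above miR-791, whereas miR-790 exceeded miR-791 by only 2.10-fold. Among the arms known to carry the shared seed, miR-228-5p made up 99.9% of the summed level. miR-790-5p was 2297-fold and miR-791-3p 6811-fold below it. Even the minor 3p arm of miR-228 was above every arm of miR-790 and miR-791, by 4.30-fold over miR-790-3p and by 18.9-fold over miR-791-3p. Ligation and amplification favour some sequences over others and are not removed by size factors, so such ratios between different miRNAs are ratios of sequenced signal. No spread between libraries was available, and none of these differences was tested. The order of neighbours that lie close together, miR-790-3p, miR-790-5p and miR-791-5p, is therefore uncertain.

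Both arms were next compared within each hairpin, in which 1 arm usually prevails. Over the 73 hairpins of the table with both arms listed, the more abundant arm exceeded the other by a median of 20.8-fold, with quartiles of 4.07-fold and 138-fold. miR-228 was strongly one-sided. Its 5p arm held 99.7% of the signal of the hairpin and was 359-fold above its 3p arm, a ratio exceeded by only 10 of the 73 hairpins. Its neighbours in that order were miR-64 with 345-fold and miR-237 with 479-fold, both also with the 5p arm in excess. Such ratios were common among the most abundant miRNAs. Of the hairpins with an arm above miR-228-5p, miR-82 (4263-fold), miR-72 (2558-fold), miR-90 (2404-fold), miR-44 (1013-fold) and miR-45 (486-fold) had larger ratios. Smaller ones were found in miR-58 (282-fold) and miR-80 (40.1-fold).

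miR-790 and miR-791 lay at the other end. In miR-790 the 3p arm was 1.49-fold above the 5p arm, which held 40.2% of the signal of the hairpin, and only 4 hairpins had arms closer in level. These values rest on a 5p arm whose bases are shared with a piRNA gene, described below, so the ratio, the share and the place in the order would change with any reads of that piRNA. It was 1 of 5 hairpins whose arms were within 1.5-fold of each other and 1 of 7 within 2-fold. Its neighbours in the order of ratios were miR-34 with 1.25-fold and miR-74 with 1.73-fold, both with the 3p arm in excess. In miR-791 the 5p arm was 2.50-fold above the 3p arm and held 71.5% of the signal, and 9 hairpins had arms closer in level. It was 1 of 14 hairpins within 3-fold. Its neighbours were miR-5592 with 2.31-fold and miR-4816 with 2.75-fold, both with the opposite arm, 3p, in excess. The lowest listed level was 51.5, so hairpins with low levels cannot show a large ratio. Ratios were also small in other hairpins whose more abundant arm was low. They were 1.01-fold in miR-797 (416), 1.08-fold in miR-800 (88.4) and 1.08-fold in miR-50 (131). Ratios were 2.07-fold in miR-259 (623) and 5.41-fold in miR-1829a (494), while miR-4813 (659) reached 10.3-fold. Whether the arms of miR-790 and miR-791 lie closer than their low levels alone would give was not tested. Over all 73 hairpins, 29 had more of the 5p arm and 44 more of the 3p arm. By these pooled means the arm known to carry the seed of the group was the higher of the pair in miR-228 and the lower in miR-790 and miR-791. With no spread between libraries these orders were not tested, and that of the arms of miR-790, which lie within 1.5-fold, is uncertain. For miR-790, pooled levels this close can stand for close levels in both groups or for an excess of opposite arms in each, and the pooled values do not separate these. The pooled order of the arms of miR-791 likewise need not hold in each group.

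**Figure D2:**
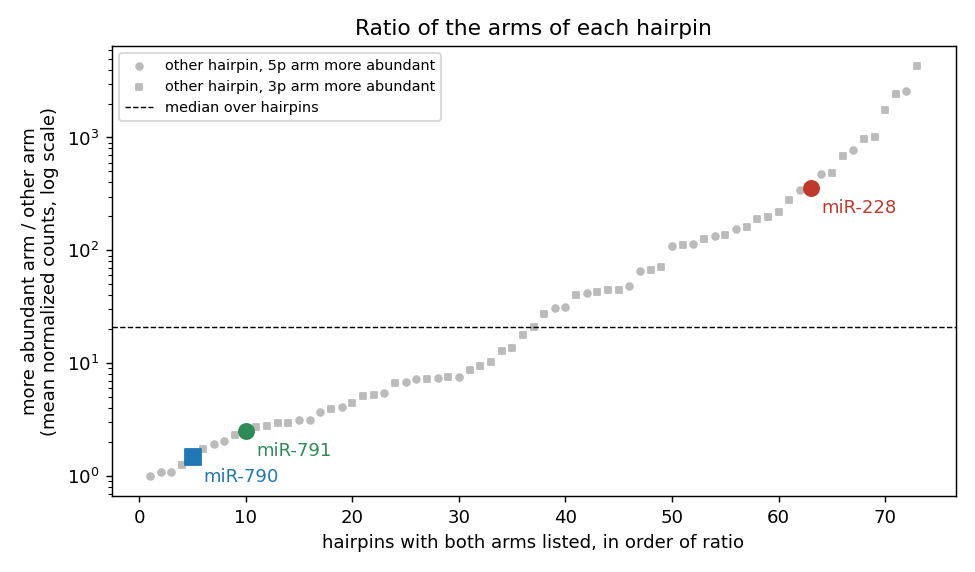
Ratio of the more abundant to the less abundant arm (mean normalized counts, log scale) for the 73 hairpins with both arms listed, in order of the ratio, with circles where the 5p arm and squares where the 3p arm was the more abundant. miR-228 lies above the median of 20.8-fold (dashed line) at 359-fold, and miR-790 (1.49-fold) and miR-791 (2.50-fold) lie far below it. The lowest listed level, 51.5, limits the ratio that a hairpin with low levels can show.

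The levels were also set against the major and minor arms of other hairpins. The median was 20314 mean normalized counts over the 73 more abundant arms and 453 over the 73 less abundant arms. Although they were the more abundant arms of their hairpins, miR-790-3p and miR-791-5p were both below the median of the less abundant arms. Of the 73 more abundant arms, 69 were above miR-790-3p and 70 above miR-791-5p. Conversely miR-228-3p, with 21 less abundant arms above it, was higher than most passenger arms.

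As a reference for miRNAs of the nervous system, 4 names were examined, lsy-6, miR-124, miR-234 and miR-71, all of which were listed. lsy-6, which sets left-right asymmetry in a pair of taste neurons, had a mean normalized count of 972. miR-124-3p, found in many sensory neurons, had 617 and miR-234-3p 594. These 3 were above miR-790-3p by 2.58-fold, 1.64-fold and 1.58-fold and above miR-791-5p by 4.54-fold, 2.88-fold and 2.78-fold. Over the arms known to carry the seed of the group, the ratios were larger. They were 3.83-fold, 2.43-fold and 2.34-fold over miR-790-5p and 11.4-fold, 7.22-fold and 6.95-fold over miR-791-3p. lsy-6, miR-124-3p and miR-234-3p were nevertheless below the 3p arm of miR-228. miR-71-5p, which acts in neurons but also in other tissues, was at 42868 and its 3p arm at 10526. miR-228-5p was above all 5 listed arms of this list.

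miR-228 and miR-790 are neighbours in the genome. In the WBcel235 assembly the mir-228 hairpin (WBGene00003321) lies at IV:5562025-5562122 and the mir-790 hairpin (WBGene00045351) at IV:5566422-5566491, both on the plus strand and 4299 bp apart. Each is the nearest annotated miRNA gene of the other. Both lie outside protein-coding genes, in an interval of 8199 bp between ari-2 on the plus strand, which ends 3204 bp before mir-228, and T12E12.6 on the minus strand, which ends 528 bp after mir-790. A non-coding RNA gene of 223 bp, T12E12.44, ends 61 bp before the mir-228 hairpin. The mir-791 hairpin (WBGene00045352) lies on another chromosome at X:5809349-5809433 on the plus strand, also outside protein-coding genes, between F13D11.3 and hbl-1, the latter a gene of developmental timing that starts 12708 bp further on. Its nearest miRNA gene is mir-230, at a distance of 5359 bp on the same strand.

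Neighbouring miRNAs on a strand can come from a common transcript, so the levels of mir-228 and mir-790 were set beside those of other neighbours. Of the hairpins of the table, 129 were placed on the assembly, and 24 pairs of adjacent hairpins lay within 5000 bp of each other on a strand. The more abundant arms of such pairs differed by a median of 3.88-fold. miR-228-5p and miR-790-3p differed by 1546-fold, more than any other of the 24 pairs. The next was the pair of miR-43 and miR-44, which differed by 1060-fold at a distance of 15 bp, and all others were within 36.0-fold. Reads of miR-44 can also match miR-45, so the value of that pair is uncertain. At 4299 bp mir-228 and mir-790 were also the most distant of the 24 pairs. Most of the other pairs lay within 281 bp of each other, so the median describes mainly much closer neighbours.

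**Figure D3:**
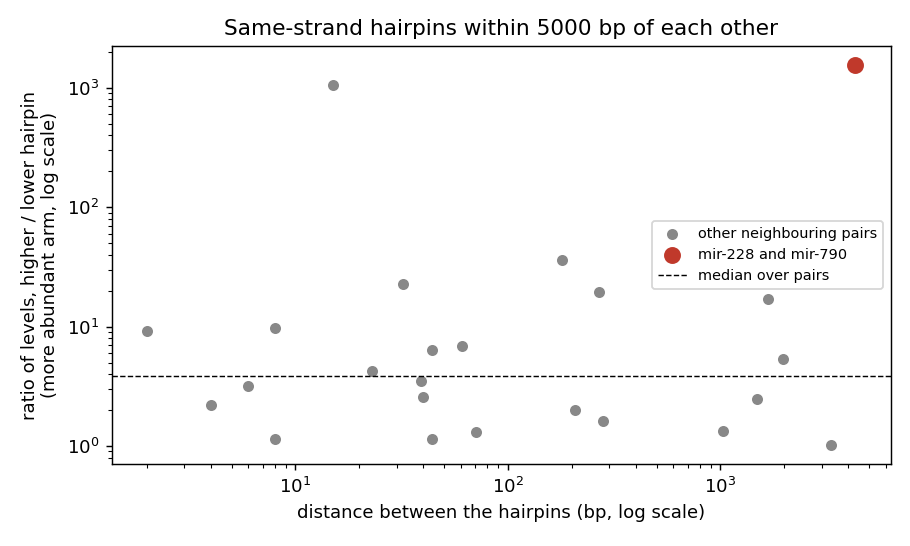
Ratio of the levels of 2 adjacent same-strand hairpins (more abundant arm of each, log scale) against the distance between them (log scale) for the 24 pairs within 5000 bp. The pair of mir-228 and mir-790 (red) lies at 1546-fold and 4299 bp, and the median is 3.88-fold (dashed line).

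The interval that holds mir-228 and mir-790 also holds piRNA genes, which encode the small RNAs bound by the Piwi protein of the germ line. On this assembly 95.8% of annotated piRNA genes are on chromosome IV. There were 23 piRNA genes between ari-2 and T12E12.6, of which 13 lay between the hairpins. The interval of 16219 bp around mir-791 on chromosome X held 0. Other intervals of chromosome IV were not counted, so whether the number around mir-228 and mir-790 is unusual there was not tested. One of the 23, 21ur-1430, lies within the annotated 5p arm of mir-790 on the same strand. Its 21 bases run from 5566428 to 5566448, while miR-790-5p runs from 5566427 to 5566448, so that all 21 bases are shared and the annotated ends differ only by 1 base at the 5′ end. Of 192 listed arms that could be placed, only 2 shared bases with a piRNA gene on the same strand, the other being miR-78. Reads from 21ur-1430 would match miR-790-5p over their full length. The treatment of such reads is not stated, levels of piRNAs were not analysed here, and the part of 21ur-1430 in the level of miR-790-5p, and thereby in the ratio of the arms of miR-790, was not tested. Without that arm, the pooled mean of miR-790-3p alone, at 377, would be above the 299.6 of both arms of miR-791. With no spread between libraries this order is uncertain and was not tested.

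The annotated precursors also differed in length. The annotated precursor was 98 bp long for mir-228, close to the median of 97 bp over the 129 placed hairpins, against 85 bp for mir-791 and 70 bp for mir-790, which was longer than only 11 of them. The bases between the arms numbered 19 in mir-228, 17 in mir-790 and 16 in mir-791, around the median of 18. By the annotation, miR-228-5p is 23 bases long, miR-790-5p 22 and miR-791-3p 24. Their partner arms are 22 bases in miR-228 and 23 in both miR-790 and miR-791. Most placed arms were of these lengths, with 80 of 192 at 22 bases and 61 at 23, whereas 22 shared the 24 bases of miR-791-3p. The arms and the bases between them were of similar length across the member hairpins. The precursors therefore differed mainly in the annotated bases outside the arms.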

How the data were processed

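Small RNA libraries were prepared by the authors from Trizol-extracted total RNA with Illumina's TruSeq Small RNA kit, 2 from CTRL and 2 from HS animals, as independent biological replicates. The authors assigned reads to known miRNAs and normalized the counts in DESeq2. The aligner, the miRNA reference, the treatment of reads that match several features and the version of the normalization tool are not given in the sources used here. The deposited table holds 1 row per mature miRNA. Its signal column, named by the file header as the DESeq2 base mean, was made by the authors by dividing counts by size factors and averaging over all 4 libraries, and it was used as deposited. The other 2 columns hold the authors' own comparison of HS with CTRL, a fold change and an adjusted p-value, and were not used, so no comparison of the groups is given. Depth and spread between libraries are unknown, and p-values, intervals and detection limits could not be obtained.

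Names were split into hairpin and arm, levels were ranked, and the ratio of the arms was computed in Python 3.11.15 with pandas 2.3.3. Positions were taken from the Ensembl release 115 annotation of WBcel235, counted from 1, by matching hairpin names. 129 of 132 hairpins and 192 of 205 arms were placed. The study names WS235 for its long RNA reads and no genome for miRNAs. An arm overlapped a piRNA gene when at least 15 bases were shared on the same strand. The calculations were tested on simulated tables. Members and lists were chosen with earlier results of these data known. The named miRNAs are the 6 member arms, the 4 names of the nervous system list and hairpins next in order to a member, the last chosen after their values were seen. A search of listed miRNAs for the shared seed was not run, as no sequence was used here.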

Additional observations from a re-analysis of the deposited data

How the results depend on the processing

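The alternatives below were chosen after seeing the data. Those set out earlier concern the comparison of HS with CTRL, namely adjusted p and fold thresholds, equal summed levels, centring on the median and arm excess in each group, and were not run because the authors' comparison was not used. No paired analysis was possible because values of single libraries were not analysed here, and for the same reason no replicate could be left out. The share of miR-228-5p rose from 5.89% to 17.2% when the 10 most abundant other miRNAs were left out of the sum, which holds by construction. Among the 132 more abundant or unpartnered miRNAs, 127 were above miR-791-3p, against 193 of all listed, and 8 were above miR-228-5p in both rankings. When each arm had to reach 100 mean normalized counts, 60 hairpins remained, of which 3 had arms closer in level than miR-790 and 50 than miR-228. miR-791 could not be ranked there, since its 3p arm is below that minimum. A minimum overlap of 1 base left the number of arms that overlap a piRNA gene at 2. With the depth unknown, the precision of low levels such as that of miR-791-3p, with 11 listed miRNAs below it, could not be given.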
